A study of Mus musculus with 39 samples.

Results

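The genes described here carry bile acids through the wall of the gut or report their presence to the rest of the body. They are Slc10a2, Fabp6, Slc51a and Slc51b, which take up, bind and export bile acids, and Nr1h4, Fgf15 and Nr0b2, which sense them and pass on the signal. The 7 genes were chosen by name from known biology, with earlier results of these data known. They are part of 34574 genes in the tables, and all 7 were found in each tissue. RNA was sequenced from the colon, the ileum and a sample named duodenum/jejunum of 13 mice of the inbred strains BALB/cJ (6 mice) and C57BL/6J (7 mice). Each mouse gave 1 library per tissue, 39 libraries in 6 groups defined by strain and tissue. No treatment or mutation is named in the labels, and sex, age and batch are not given in the sources used here. Replicates are separate animals, numbered within a strain.

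Bile acids are made in the liver, released into the duodenum to help absorb fat, and recovered almost entirely in the last part of the small intestine. There the apical transporter encoded by Slc10a2 takes them into the enterocyte, the cytosolic protein encoded by Fabp6 binds them, and the heterodimer of the Slc51a and Slc51b products releases them on the blood side. Inside the cell they activate the nuclear receptor encoded by Nr1h4 (FXR), which induces Fgf15, a hormone that travels to the liver and lowers bile acid synthesis, and Nr0b2 (SHP), a receptor without a DNA-binding domain that represses other transcription factors.

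In the GENCODE M21 annotation of the mouse build GRCm38 all 7 are protein-coding genes on 7 different chromosomes. Slc10a2 lies at chr8:5083219-5105351, Fabp6 at chr11:43596049-43601540, Slc51a at chr16:32474504-32487879, Slc51b at chr9:65412714-65422955 and Nr1h4 at chr10:89454234-89533585, all on the minus strand. Fgf15 lies at chr7:144896531-144900953 and Nr0b2 at chr4:133553376-133556536, both on the plus strand.

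Levels are given as TPM, a transcript measure scaled for transcript length and library total, so levels can be set beside each other across genes. Each library summed to between 978462 and 994059 TPM and had 14537 to 16165 genes at 1 TPM or more. Read numbers cannot be had from TPM. The depth is therefore unknown, and the precision comes from the spread between mice. Every library held all listed markers of its labelled tissue at 1 TPM or more, including the libraries of C57BL/6J mouse 2. Presence at 1 TPM cannot tell the ileum from the duodenum/jejunum. Every duodenum/jejunum library also held all 12 ileal markers, and every ileum library at least 15 of 16 duodenal and jejunal markers. The level of the duodenal and jejunal markers set the small-intestine libraries of C57BL/6J mouse 2 apart from those of the other mice. In that mouse the library labelled ileum had 34455 TPM summed over 16 markers of duodenal and jejunal enterocytes, against 1368 to 4282 in the other C57BL/6J ileum libraries. Its library labelled duodenum/jejunum had 11397 TPM over the same markers, below the 15477 to 32230 TPM of the other 12 mice. This was above the 1368 to 8815 TPM of the other ileum libraries. Summed over the 12 ileal markers, C57BL/6J libraries held 3872 to 6322 TPM in the ileum and 2536 to 4074 TPM in the duodenum/jejunum. Mouse 2 lay within both of these ranges. By the duodenal and jejunal markers its library labelled ileum goes against the label and that labelled duodenum/jejunum lies between the tissues. The tests are therefore given with all mice and without mouse 2. All samples hold mixed tissue, in which fewer cells of a type and less RNA per cell cannot be told apart.

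Fabp6 set the ileum apart more than any other of the 7 genes. In BALB/cJ it ranged from 4884 to 11144 TPM in the ileum (median 6159), from 8.22 to 22.4 in the colon (median 13.1) and from 2.99 to 96.0 in the duodenum/jejunum (median 4.88). In C57BL/6J without mouse 2 it ranged from 3766 to 8189 TPM in the ileum (median 4792), from 8.60 to 18.9 in the colon (median 11.7) and from 3.12 to 31.99 in the duodenum/jejunum (median 6.10). Ileum and other tissues did not overlap in either strain once mouse 2 was left out. Fabp6 ranked between 3 and 18 among all genes by TPM in the BALB/cJ ileum libraries and between 8 and 32 in those of C57BL/6J without mouse 2. Mouse 2 had 22.1 TPM under the label ileum and 6111 TPM under the label duodenum/jejunum.

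**Figure D1:**
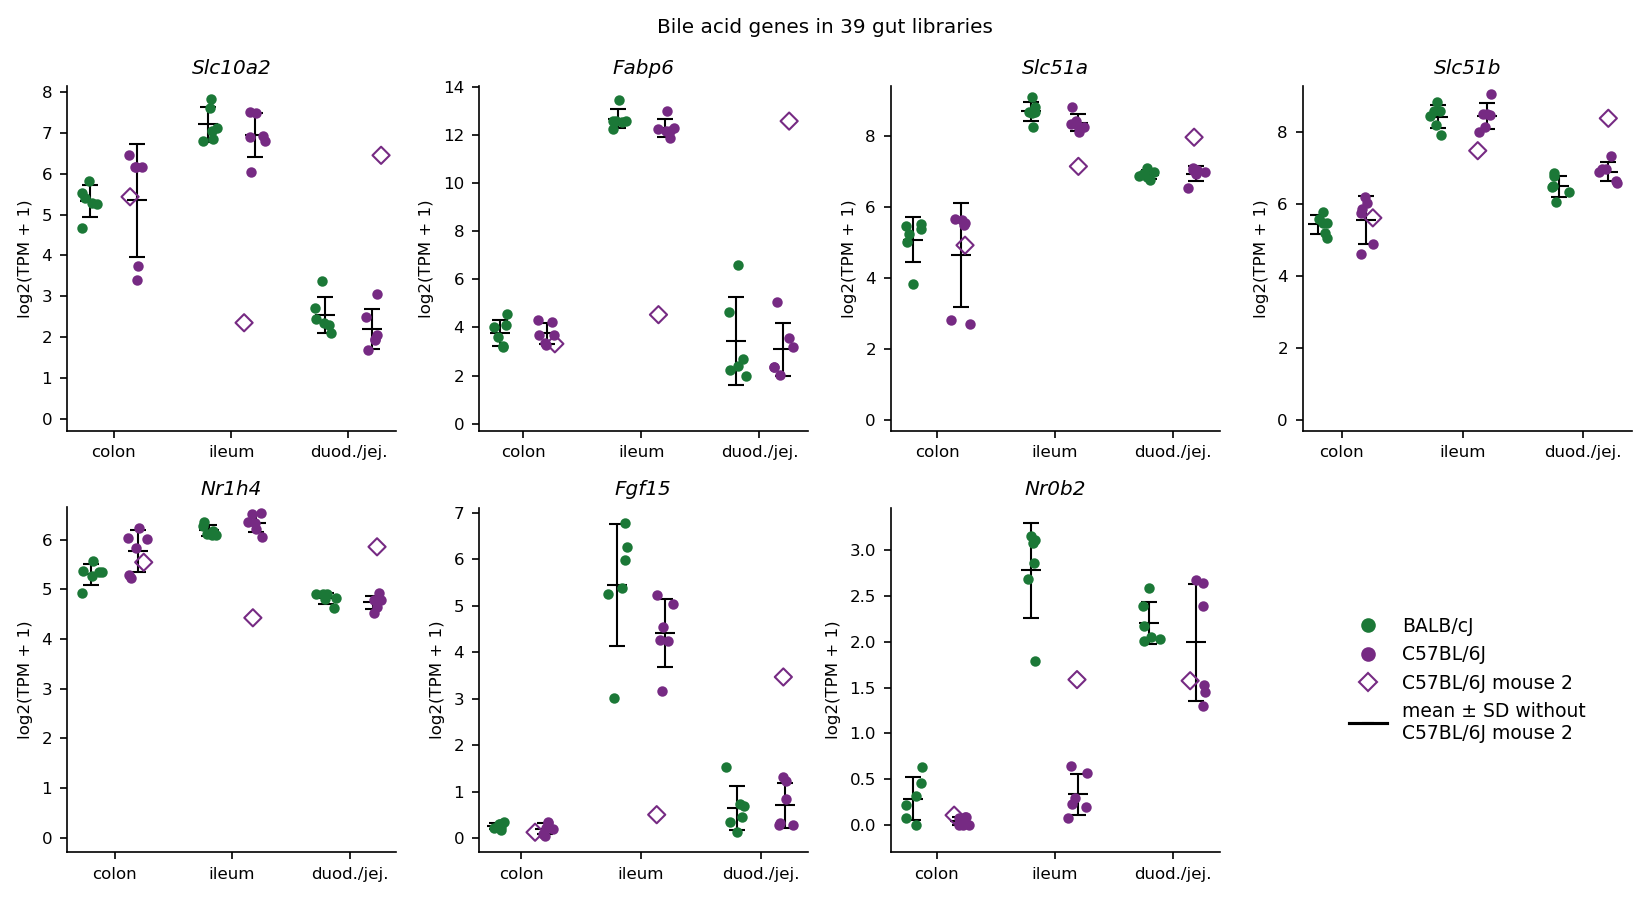
TPM of the 7 genes in every library on a logarithmic axis, by tissue and strain, with each mouse as a point and the libraries of C57BL/6J mouse 2 marked separately. Fabp6 lies at 3766 TPM or higher in 12 ileum libraries and at 96.0 TPM or lower in 12 duodenum/jejunum libraries, and the marked libraries of mouse 2 lie on the opposite side in both tissues.

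Slc10a2, the uptake transporter, had the same order of medians as Fabp6, with the colon in the middle. In BALB/cJ it ranged from 111 to 229 TPM in the ileum (median 134.5), from 24.3 to 55.9 in the colon (median 39.8) and from 3.31 to 9.30 in the duodenum/jejunum (median 4.24). In C57BL/6J without mouse 2 it ranged from 64.6 to 183 TPM in the ileum (median 120), from 9.46 to 86.9 in the colon (median 70.9) and from 2.21 to 7.25 in the duodenum/jejunum (median 3.02). The 3 tissues did not overlap in BALB/cJ, while ileum and colon overlapped in C57BL/6J. In C57BL/6J mouse 5 the colon held more Slc10a2 (71.4 TPM) than the ileum (64.6 TPM), and so did that of mouse 2 (42.3 TPM against 4.10 TPM under the label ileum).

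The subunits of the exporter, Slc51a and Slc51b, were not restricted to the ileum and took the duodenum/jejunum as their next tissue. Slc51a averaged 421 ± 78.9 TPM (SD, n = 6) in the BALB/cJ ileum, 120 ± 10.1 in the duodenum/jejunum and 35.3 ± 11.8 in the colon. In C57BL/6J without mouse 2 it averaged 337 ± 62.2 TPM (SD, n = 6), 123 ± 16.01 and 33.5 ± 21.5 in the same tissues. Slc51b averaged 350 ± 75.3, 91.2 ± 18.4 and 42.9 ± 7.83 TPM in BALB/cJ and 358 ± 97.2, 120 ± 23.3 and 50.03 ± 19.9 TPM in C57BL/6J without mouse 2. For both subunits, without mouse 2, the ileum libraries lay above all duodenum/jejunum libraries of the same strain, and these above all its colon libraries. The level of Slc51a relative to Slc51b was 1.21 ± 0.0953 in the BALB/cJ ileum and 0.965 ± 0.160 in the C57BL/6J ileum without mouse 2, and was below 1 in the colon of both strains (0.822 ± 0.269 and 0.591 ± 0.297).

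Because both subunits are needed for a working exporter and their levels moved together between mice, the sequence upstream of their start sites is shown. RefSeq windows of build GRCm38.p6, from 250 bases before to 50 after the start, were matched for 6 of the 7 genes. The lines below give the part upstream of the start site in both annotations, 5′ to 3′ on the gene's strand, with AGGTCA or its reverse complement TGACCT in capitals. AGGTCA is the hexamer to which nuclear receptors such as FXR bind, singly or in repeats.
Slc51a, chr16:32487880-32488129, minus strand: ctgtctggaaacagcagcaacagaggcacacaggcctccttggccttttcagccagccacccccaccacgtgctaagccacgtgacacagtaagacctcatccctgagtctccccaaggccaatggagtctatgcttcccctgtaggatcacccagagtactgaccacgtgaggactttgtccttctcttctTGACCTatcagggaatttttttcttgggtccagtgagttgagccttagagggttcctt
Slc51b, chr9:65422956-65423023, minus strand: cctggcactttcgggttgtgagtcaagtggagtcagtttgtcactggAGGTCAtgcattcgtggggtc
The hexamer stood 58 bases before the RefSeq start of Slc51a and 203 before that of Slc51b, and on either strand it occurs in 16.3% of 32851 windows of 300 bases, so these matches describe the sequence and no more. The exact form of the inverted repeat bound by FXR has AGGTCA and TGACCT facing each other across 1 base. It was in 3 of the 32851 windows and in 0 of the 6 windows of these genes. Only these exact letters were sought, so sites that differ from them were not looked for. A match this rare would be absent from 6 windows in most draws.

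Nr1h4, the bile acid receptor, had the narrowest range across tissues. It averaged 71.8 ± 5.40 TPM (SD, n = 6) in the BALB/cJ ileum, 38.7 ± 5.44 in the colon and 27.4 ± 2.07 in the duodenum/jejunum. In C57BL/6J without mouse 2 the means were 80.1 ± 10.1, 55.4 ± 15.2 and 25.7 ± 2.50 TPM. Without mouse 2 all ileum libraries lay above all duodenum/jejunum libraries in both strains, and in C57BL/6J the ileum (from 65.0 TPM) overlapped the colon (up to 74.0 TPM). The lowest Nr1h4 value in the set, 20.5 TPM, was in the library labelled ileum of mouse 2.

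Fgf15, the hormone, was high in the ileum libraries and, among the rest, in the library labelled duodenum/jejunum of mouse 2. It was between 7.05 and 109 TPM in the BALB/cJ ileum (median 51.8) and between 7.97 and 36.6 TPM in the C57BL/6J ileum without mouse 2 (median 20.4). In the colon all 13 libraries held between 0.0311 and 0.271 TPM. In the duodenum/jejunum the levels were 0.0976 to 1.88 TPM in BALB/cJ and 0.215 to 1.49 TPM in C57BL/6J without mouse 2, and mouse 2 had 10.1 TPM there and 0.425 TPM in the library labelled ileum. Without mouse 2 the ileum range overlapped neither of the other tissues in either strain.

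Nr0b2, the repressor, was low throughout, and its order of tissues depended on the strain. In BALB/cJ it was 2.44 to 7.93 TPM in the ileum (median 6.87), 3.01 to 5.01 in the duodenum/jejunum (median 3.32) and 0 to 0.550 in the colon (median 0.206). In C57BL/6J without mouse 2 it was 0.0530 to 0.558 TPM in the ileum (median 0.198), 1.46 to 5.37 in the duodenum/jejunum (median 3.06) and 0 to 0.0637 in the colon (median 0.0286). The library labelled ileum of mouse 2 had 2.00 TPM and its library labelled duodenum/jejunum 1.98 TPM. Every BALB/cJ ileum library was above every C57BL/6J ileum library, and in C57BL/6J without mouse 2 every ileum library was below every duodenum/jejunum library.

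The region upstream of Nr0b2 is shown because its level differed between the strains. The capitals mark GGGTCA, a variant of the receptor hexamer, and TCAAGG, the core to which the orphan receptor LRH-1 (Nr5a2) binds.
Nr0b2, chr4:133553126-133553375, plus strand: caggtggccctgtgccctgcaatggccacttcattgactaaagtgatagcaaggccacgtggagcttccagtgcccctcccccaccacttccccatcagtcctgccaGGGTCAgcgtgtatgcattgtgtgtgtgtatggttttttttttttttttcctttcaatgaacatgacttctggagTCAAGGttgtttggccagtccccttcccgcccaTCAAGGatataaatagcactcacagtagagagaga
GGGTCA occurs in 13.7% of the 32851 windows and TCAAGG in 14.4%, counted on both strands, and the Nr0b2 window holds the former 143 bases before the start and the latter 68 and 35 bases before it. The sequence is that of the reference genome, which comes from C57BL/6J, and the BALB/cJ sequence was not analysed here.

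The comparison of the ileum with the duodenum/jejunum asks how sharply bile acid recovery is placed along the small intestine. Tests were made with limma on log2(TPM + 1) over the 39 libraries, p-values were adjusted over 17126 genes by the Benjamini-Hochberg method, and a gene was called at an adjusted p under 0.05. In BALB/cJ all 7 genes were higher in the ileum, where 43.1% of all genes tested were called with all mice and 46.0% without mouse 2 (35.5% and 37.6% as higher). The ratio of mean levels was 297 for Fabp6, 84.3 for Fgf15, 30.1 for Slc10a2, 3.84 for Slc51b, 3.49 for Slc51a and 2.62 for Nr1h4. On the log2(TPM + 1) scale the limma differences were 9.25 ± 1.20 (SE) for Fabp6 (adjusted p = 3.05e-07), 4.79 ± 0.56 for Fgf15 (4.64e-08) and 4.67 ± 0.67 for Slc10a2 (1.61e-06). Fgf15 met the filter of 1 TPM in 6 libraries only through the ileum, where it is high. The test was also run with no filter, and its calls for the ileum against either other tissue were kept. None of these 6 genes overlapped between the tissues, which held for 17.4% of all genes tested. The median of all genes was 0.20 higher in the ileum on this scale in BALB/cJ and 0.04 higher in C57BL/6J.

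The exception in size was Nr0b2, which was 1.69-fold higher in the BALB/cJ ileum with overlapping ranges. Its limma difference was 0.58 ± 0.23 on the log2(TPM + 1) scale (adjusted p = 0.0445, and 0.0248 without mouse 2). The ileum was the higher tissue in 5 of the 6 mice, with within-mouse ratios from 0.792 to 2.43. The call was lost when the difference was taken within each mouse (limma adjusted p = 0.0943), with a pseudocount of 0.1 (0.236) or no filter (0.0725), with relative log expression scaling, which sets the median ratio across genes to be equal (0.234), with scaling to 10 epithelial markers (0.693), and when BALB/cJ mouse 2, 3, 4, 5 or 6 or C57BL/6J mouse 3 was left out (0.0508 to 0.154).

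In C57BL/6J 6 of the 7 genes were higher in the ileum and Nr0b2 was lower, against 11.3% of all genes called with all mice and 20.6% without mouse 2. Of all genes 5.54% were called as higher and 5.79% as lower with all mice, and 10.8% and 9.86% without mouse 2. Without mouse 2 the ratio of means was 501 for Fabp6, 33.9 for Slc10a2, 31.4 for Fgf15, 3.12 for Nr1h4, 2.98 for Slc51b and 2.74 for Slc51a, with no overlap for any of them (10.3% of all genes tested did not overlap). With mouse 2 the ratios of the same genes dropped to 5.05, 7.12, 9.43, 2.37, 2.21 and 2.19 and every one of them overlapped between the tissues. The limma differences for Fabp6 were 6.74 ± 1.11 with all mice (adjusted p = 7.05e-05) and 9.21 ± 0.52 without mouse 2 (2.26e-15). Slc51a passed narrowly with all mice (1.12 ± 0.36, adjusted p = 0.0347) and with more room without mouse 2 (1.44 ± 0.37, adjusted p = 0.00423). With mouse 2 kept, its call was lost when any of the other C57BL/6J mice was left out (limma adjusted p 0.0610 to 0.0852).

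Nr0b2 averaged 0.272 ± 0.201 TPM in the C57BL/6J ileum and 3.32 ± 1.83 TPM in the duodenum/jejunum without mouse 2 (SD, n = 6), 12.2-fold higher in the latter. The limma difference, ileum minus duodenum/jejunum, was -1.42 ± 0.22 with all mice (adjusted p = 2.46e-05) and -1.66 ± 0.21 without mouse 2 (adjusted p = 1.92e-07). The ileum was the lower tissue in all 6 mice, at between 0.0125 and 0.258 of the level in the duodenum/jejunum of the same mouse. The level in the C57BL/6J duodenum/jejunum was itself uneven: mice 4, 5 and 6 had 5.37, 5.22 and 4.25 TPM and mice 1, 3 and 7 had 1.46, 1.87 and 1.72 TPM. Exocrine pancreas markers, summed over 12 genes, stood at 2766, 2119 and 7612 TPM in mice 4, 5 and 6 and at 8.12, 9.95 and 327 TPM in mice 1, 3 and 7, and their part in the result was not tested. In the BALB/cJ duodenum/jejunum the same sum ran from 6.15 to 6425 TPM and Nr0b2 from 3.01 to 5.01 TPM. The relation of the 2 was not tested there either.

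**Figure D2:**
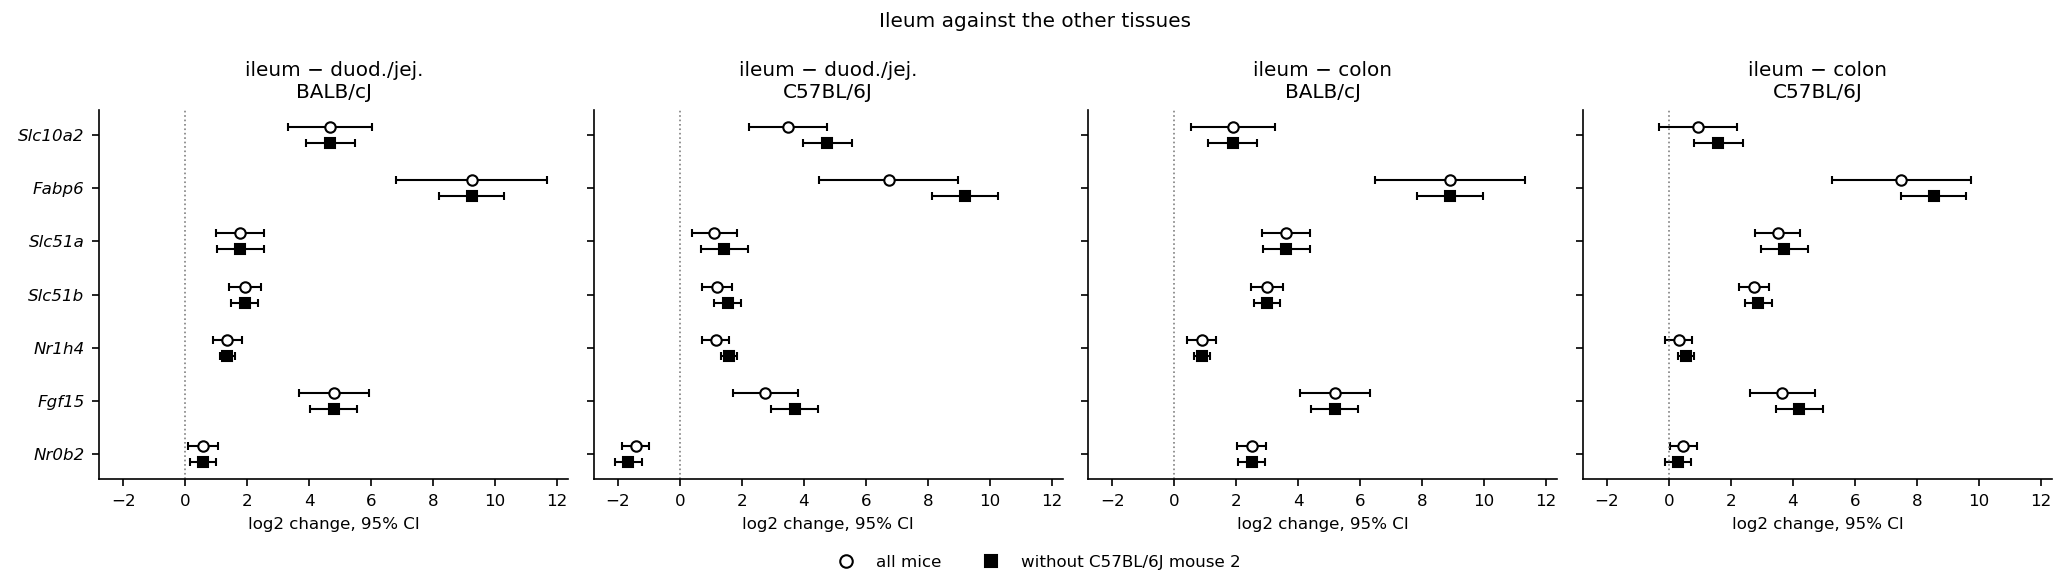
Difference between tissues in log2(TPM + 1) from limma for each gene and strain, with 95% intervals, for all mice and without C57BL/6J mouse 2. In the ileum against duodenum/jejunum comparison Nr0b2 lies at 0.58 in BALB/cJ and at -1.42 (all mice) or -1.66 (without mouse 2) in C57BL/6J, on opposite sides of 0, while the other 6 genes lie above 0 in both strains.

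Against the colon, all 7 genes were higher in the BALB/cJ ileum, where 46.1% of all genes were called and 15.8% as higher (48.9% and 16.8% without mouse 2). The ratios of mean levels were 499 for Fabp6, 269 for Fgf15, 26.8 for Nr0b2, 11.9 for Slc51a, 8.17 for Slc51b, 3.79 for Slc10a2 and 1.85 for Nr1h4. In C57BL/6J 4 of the 7 genes passed with all mice and 6 without mouse 2, all as higher, against 61.7% and 58.7% of all genes tested (15.2% and 14.9% as higher). The 2 genes gained were Slc10a2 (limma difference 0.93, adjusted p = 0.198, with all mice; 1.59, adjusted p = 6.59e-04, without mouse 2) and Nr1h4 (0.32, adjusted p = 0.194, and 0.56, adjusted p = 2.24e-04). Nr0b2 did not pass in C57BL/6J, at 0.46 (limma adjusted p = 0.0635) with all mice and 0.29 (95% interval -0.14 to 0.72, adjusted p = 0.241) without mouse 2. It was higher in the ileum in 7 of 7 mice, and with all mice it passed with a pseudocount of 0.1 (1.69, limma adjusted p = 6.87e-04). For Slc10a2 in BALB/cJ (1.88 ± 0.67, limma adjusted p = 0.0201) the call was lost when BALB/cJ mouse 1 (0.0510) or mouse 5 (0.0823) was left out with mouse 2 kept.

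Between the duodenum/jejunum and the colon, the uptake gene and the exporter subunits differed in opposite directions. The colon held both, at means of 40.4 TPM for Slc10a2, 35.3 for Slc51a and 42.9 for Slc51b in BALB/cJ. Slc10a2 was lower in the duodenum/jejunum than in the colon, with a difference of -2.79 ± 0.67 on the log2(TPM + 1) scale in BALB/cJ (limma adjusted p = 4.47e-04) and of -3.16 ± 0.39 in C57BL/6J without mouse 2 (1.26e-08; -2.56 ± 0.62, adjusted p = 4.77e-04, with all mice). The exporter subunits were higher in the duodenum/jejunum, Slc51a by 1.84 ± 0.38 (limma adjusted p = 7.97e-05) and 2.29 ± 0.37 (2.12e-06) and Slc51b by 1.06 ± 0.26 (5.05e-04) and 1.34 ± 0.21 (1.68e-06) in the same fits. With all mice the C57BL/6J values were 2.40 ± 0.36 for Slc51a (limma adjusted p = 2.98e-07) and 1.54 ± 0.24 for Slc51b (7.02e-07). Nr0b2 was also higher there, and Fabp6 and Fgf15 did not pass in either strain. With all mice Fgf15 passed in C57BL/6J with a pseudocount of 0.1 (2.01, limma adjusted p = 0.0141) and as differences within each mouse (0.0200, and 0.0416 without mouse 2). In all, 4 of the 7 genes were called in BALB/cJ with all mice and 5 without mouse 2 (63.5% and 64.9% of all genes tested), Nr1h4 being gained, and 5 of 7 in C57BL/6J either way (64.6% and 63.1%).

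Cell markers moved with the tissues too. Without mouse 2, of 10 markers of all gut epithelium 7 were higher in the BALB/cJ ileum than in its duodenum/jejunum and 6 in that of C57BL/6J, with summed levels of 6975 to 10192 TPM against 5103 to 6755 in BALB/cJ and 8453 to 10696 against 5493 to 7005 in C57BL/6J. All 10 B cell markers were higher in the ileum of both strains, where 37.6% (BALB/cJ) and 10.8% (C57BL/6J) of all genes were called as higher. Smooth muscle markers were higher in BALB/cJ (10 of 10, 997 to 1545 TPM against 400 to 1056) and 0 of 10 passed in C57BL/6J by limma (657 to 1620 TPM against 696 to 1407, 1 at an unadjusted p under 0.05). With all mice the counts were 7 and 6 for epithelium, 10 and 9 for B cells and 9 and 0 for smooth muscle, against 35.5% and 5.54% of all genes. The part of B cells and smooth muscle in the results was not tested. With every library scaled to the 10 epithelial markers Slc10a2, Fabp6, Slc51b, Nr1h4 and Fgf15 kept their calls in both strains, with and without mouse 2. Slc51a lost its call in C57BL/6J with all mice under that scaling (0.75, limma adjusted p = 0.0754), and also with no filter (0.0609). Of 12 markers of ileal enterocytes that are not bile acid genes, 7 were higher and 1 lower in the BALB/cJ ileum and 8 were higher in the C57BL/6J ileum (7, 1 and 6 with all mice).

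The strain comparison asks whether BALB/cJ and C57BL/6J differ in bile acid handling, and in the ileum 1 of the 7 genes passed. That gene was Nr0b2, in a comparison where 20.4% of 15537 genes were called with all mice (23.5% of 15434 without mouse 2). Nr0b2 averaged 6.20 ± 2.07 TPM (SD, n = 6) in BALB/cJ and 0.272 ± 0.201 TPM (SD, n = 6) in C57BL/6J without mouse 2, a 22.7-fold difference, and 11.9-fold with mouse 2. The limma difference on log2(TPM + 1), BALB/cJ minus C57BL/6J, was 2.27 ± 0.27 (95% interval 1.70 to 2.84, adjusted p = 3.54e-05) with all mice and 2.45 ± 0.21 (adjusted p = 2.37e-06) without mouse 2. The strains did not overlap in either version, as was so for 9.82% of all genes with all mice. Nr0b2 met the filter of 1 TPM in 6 libraries through the BALB/cJ group, and mouse 2 where kept, so the test was also run with no filter, where its adjusted p from limma was 1.45e-04 with all mice and 1.65e-05 without mouse 2.

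**Figure D3:**
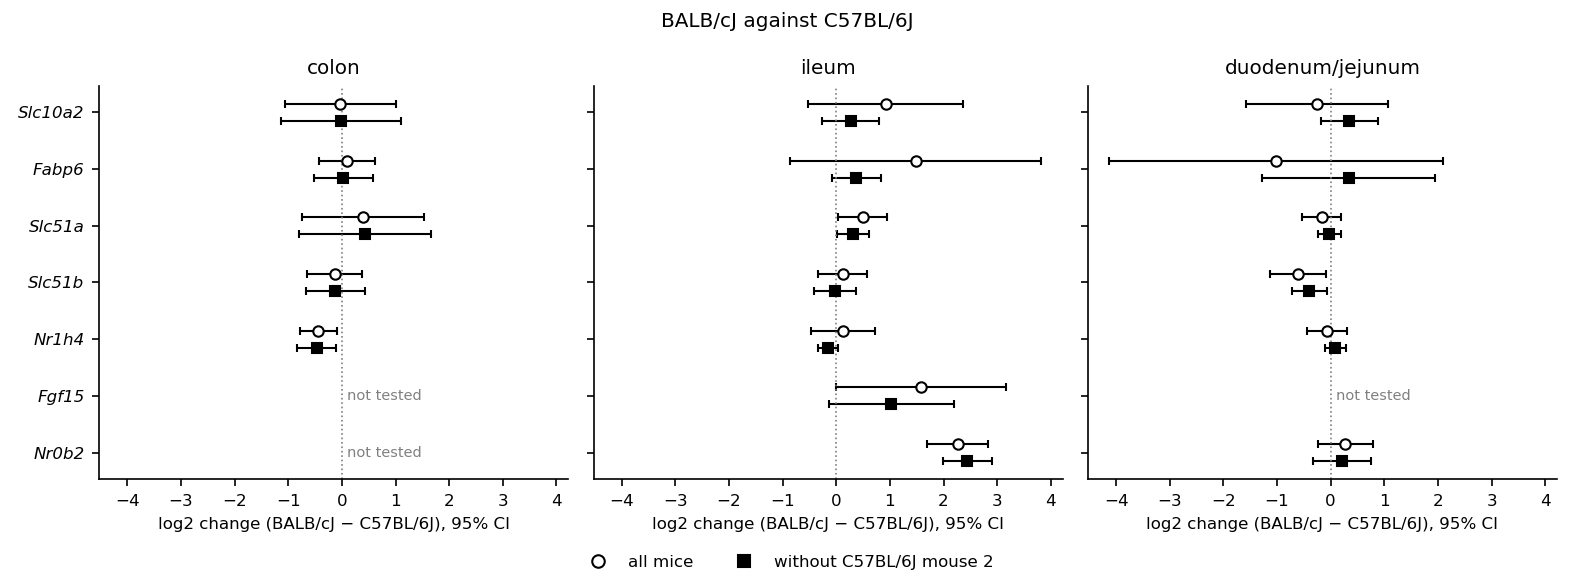
Strain difference, BALB/cJ minus C57BL/6J, in log2(TPM + 1) from limma for each gene in each tissue, with 95% intervals, for all mice and without C57BL/6J mouse 2. Nr0b2 in the ileum, at 2.27 and 2.45, is the gene whose difference was called, and the intervals of Fabp6 and Slc10a2 in the ileum become narrow once mouse 2 is left out.

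The strain difference of Nr0b2 was tested between tissues, since passing in 1 tissue and not in another is no test. It was larger in the ileum than in the duodenum/jejunum by 2.00 ± 0.32 on the log2(TPM + 1) scale (limma interaction, adjusted p = 4.59e-04; 2.24 ± 0.30, adjusted p = 1.65e-05, without mouse 2). Nr0b2 was 1 of 7 genes called there, against 3.92% of all genes (4.41% without mouse 2). It was larger in the ileum than in the colon by 2.04 ± 0.32 (adjusted p = 3.38e-05; 2.21, adjusted p = 3.68e-06, without mouse 2), again the 1 gene of 7, against 4.08% (4.53%). Since the colon levels lie below the pseudocount of 1, this value largely restates the ileal difference. In the duodenum/jejunum itself the strains had 3.66 ± 0.80 and 3.32 ± 1.83 TPM without mouse 2, a limma difference of 0.21 (95% interval -0.33 to 0.75, adjusted p = 0.723). In the colon the level was too low to test, with means of 0.231 ± 0.204 TPM (BALB/cJ) and 0.0300 ± 0.0330 TPM (C57BL/6J without mouse 2).

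Markers beside the Nr0b2 result were as follows, without mouse 2, where 23.5% of all genes were called between the strains. Of 10 epithelial and 10 smooth muscle markers 0 passed between the strains in the ileum by limma, and 0 had an unadjusted p under 0.05, with epithelial sums of 6975 to 10192 TPM in BALB/cJ against 8453 to 10696 TPM. Of 10 B cell markers, 4 (Cd79a, Cr2, Fcer2a and Fcrl1) were higher in BALB/cJ, with summed levels of 130 to 285 TPM against 78.7 to 187 TPM, and their part in the result was not tested. With all mice 0 epithelial, 0 smooth muscle and 5 B cell markers passed, against 20.4% of all genes. Of 8 genes of the liver, an organ rich in Nr0b2, 5 were tested, of which Serpina1a was higher and Tat lower in BALB/cJ, with summed levels of 349 to 1089 TPM against 504 to 920 TPM. Of the 8, Alb averaged 0.0180 TPM in the BALB/cJ ileum and 0.0359 in that of C57BL/6J, and Fgb and Ahsg did not exceed 0.0795 TPM in any of these libraries. Summed over the 8, the BALB/cJ libraries held 987 to 1650 TPM in the duodenum/jejunum and 60.2 to 81.5 TPM in the colon. The sum thus also differs between gut tissues. The part of liver RNA in the result was not tested.

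For the other 6 genes the strains were not told apart in the ileum, and the intervals show how large a difference remains possible. Without mouse 2 the limma differences on log2(TPM + 1), BALB/cJ minus C57BL/6J, were 0.27 (95% interval -0.27 to 0.80) for Slc10a2 and 0.37 (-0.08 to 0.83) for Fabp6. They were 0.32 (0.02 to 0.61) for Slc51a, with an adjusted p from limma of 0.112, -0.02 (-0.41 to 0.37) for Slc51b and -0.15 (-0.34 to 0.04) for Nr1h4. The median gene differed by 0.16 in the same direction, so the differences of Slc10a2, Fabp6 and Slc51a stood little above that of the whole table. Without mouse 2 the scaling decided 2 of these genes: Slc51a passed with libraries scaled to the epithelial markers (0.34, limma adjusted p = 0.0343), and Nr1h4 passed as lower in BALB/cJ with relative log expression scaling (-0.32, adjusted p = 0.0171). With mouse 2 the differences of Slc10a2 and Fabp6 were 0.92 and 1.48 and still did not pass (adjusted p 0.337 and 0.341, limma), their intervals reaching from -0.52 to 2.37 and from -0.86 to 3.82.

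Fgf15 had the next largest strain difference in the ileum, and did not pass. It averaged 55.4 ± 35.2 TPM (SD, n = 6) in BALB/cJ and 22.6 ± 10.4 TPM (SD, n = 6) in C57BL/6J without mouse 2, a ratio of 2.45. The 6 BALB/cJ mice had 7.05, 41.1, 37.1, 109, 62.6 and 75.6 TPM, and the 6 C57BL/6J mice 36.6, 32.1, 22.4, 18.3, 7.97 and 17.96 TPM. Of the BALB/cJ mice 5 were above every C57BL/6J mouse and mouse 1 was below them all. The limma difference was 1.03 (95% interval -0.13 to 2.19, adjusted p = 0.179) without mouse 2 and 1.59 (0.00 to 3.17, adjusted p = 0.137) with it.

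In the colon 0 of the 5 genes tested passed between strains by limma, against 25.3% of all genes (24.3% without mouse 2), and in the duodenum/jejunum 0 of 6 passed, against 9.50% (8.93%). In each of these tissues 1 gene had an unadjusted p under 0.05, with and without mouse 2. The closest in the colon was Nr1h4, at 38.7 ± 5.44 TPM in BALB/cJ and 55.4 ± 15.2 TPM in C57BL/6J without mouse 2, with a limma difference of -0.44 (95% interval -0.78 to -0.09, adjusted p = 0.0619) with all mice and -0.47 (adjusted p = 0.0620) without mouse 2. It passed when BALB/cJ mouse 6, C57BL/6J mouse 1 or C57BL/6J mouse 6 was left out (limma adjusted p 0.0489, 0.0213 and 0.0284). The closest in the duodenum/jejunum was Slc51b, at 91.2 ± 18.4 and 120 ± 23.3 TPM, with a limma difference of -0.40 (95% interval -0.72 to -0.08, adjusted p = 0.134) without mouse 2 and -0.61 (-1.13 to -0.09, adjusted p = 0.157) with all mice. The strain difference of Nr1h4 in the duodenum/jejunum against that in the colon did not pass with all mice (0.37, limma adjusted p = 0.622; 0 of 7 genes called, 5.59% of all genes) and passed without mouse 2 (0.56 ± 0.18, adjusted p = 0.0455; 1 of 7 called, 7.49%).

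The colon of C57BL/6J held 2 mice apart from the rest. Mice 1 and 6 had 9.46 and 12.5 TPM of Slc10a2 and 5.58 and 6.11 TPM of Slc51a, where the other 5 mice had 42.3 to 86.9 TPM and 29.5 to 49.6 TPM. Slc51b (28.5 and 23.4 TPM against 48.2 to 72.7) and Nr1h4 (36.4 and 38.2 TPM against 45.6 to 74.0) were also lowest in these mice, while Fabp6 was second highest in mouse 1 (17.9 TPM) and lowest in mouse 6 (8.60 TPM). In BALB/cJ mouse 5 was lowest in Slc10a2 (24.3 TPM), Slc51a (13.3 TPM) and Nr1h4 (29.5 TPM). Summed over 10 colon epithelium markers, mice 1 and 6 of C57BL/6J had 14406 and 15187 TPM, the others 12985 (mouse 2) to 22061 TPM, and BALB/cJ mouse 5 had 9280 TPM, the lowest of the 13. The part of these markers in the result was not tested. The labels do not say from which stretch of colon a sample was cut.

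**Figure D4:**
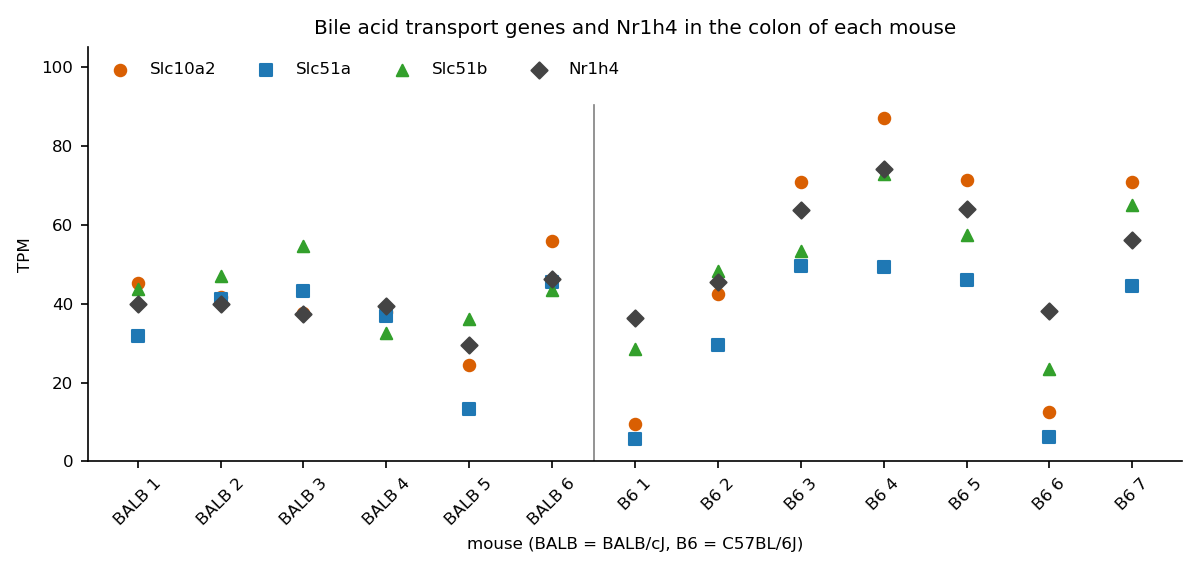
TPM of Slc10a2, Slc51a, Slc51b and Nr1h4 in the colon library of each mouse. Slc10a2 and Slc51a of C57BL/6J mice 1 and 6 lie at 12.5 TPM or lower and those of the other 5 C57BL/6J mice at 29.5 TPM or higher.

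Within the ileum the transport genes rose and fell together from mouse to mouse. Over 12 mice without mouse 2, with each strain's mean subtracted, Fabp6 and Slc51a had a Pearson r of 0.94 and a Spearman rho of 0.88 (permutation p adjusted over 21 pairs = 4.20e-04 for r). Slc51a and Slc51b had an r of 0.87 (adjusted permutation p = 0.00987), and the other pairs among Slc10a2, Fabp6, Slc51a and Slc51b had r between 0.73 and 0.80 (adjusted permutation p 0.0190 to 0.0421). By rho 3 of these 4 did not pass: Slc10a2 with Fabp6 (adjusted permutation p = 0.120), Slc10a2 with Slc51a (0.0929) and Fabp6 with Slc51b (rho 0.55, 0.184). Without the 2 mice farthest from the median these 6 correlations stood at 0.53 to 0.89. In all, 7 of 21 pairs passed, 12 of 21 with all 13 mice, 1 of 21 when libraries were scaled to the epithelial markers (Fabp6 with Slc51a, r = 0.91, adjusted permutation p = 0.00441) and 11 of 21 with relative log expression scaling. Levels of 2 genes in 1 library share that library's makeup and scaling.

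Fgf15 and Nr0b2, both known targets of FXR, were the seventh pair. Their r was 0.87 (adjusted permutation p = 0.0216) and their rho 0.65 (adjusted permutation p = 0.120) without mouse 2. With all 13 mice r was -0.06 (adjusted permutation p = 0.824). BALB/cJ mouse 1 was the lowest of its strain in both, at 7.05 TPM of Fgf15 and 2.44 TPM of Nr0b2. Without the 2 mice farthest from the median r was 0.50, so the relation rests on those mice. Within BALB/cJ r was 0.96 and within C57BL/6J 0.49, over 6 mice each. With the transport genes Fgf15 had r between -0.16 (Slc10a2) and 0.32 (Fabp6) without mouse 2, none of which passed. With all 13 mice r was 0.76 with Fabp6 (adjusted permutation p = 0.0349), 0.69 with Slc51a and 0.65 with Slc10a2, of which the first passed.

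**Figure D5:**
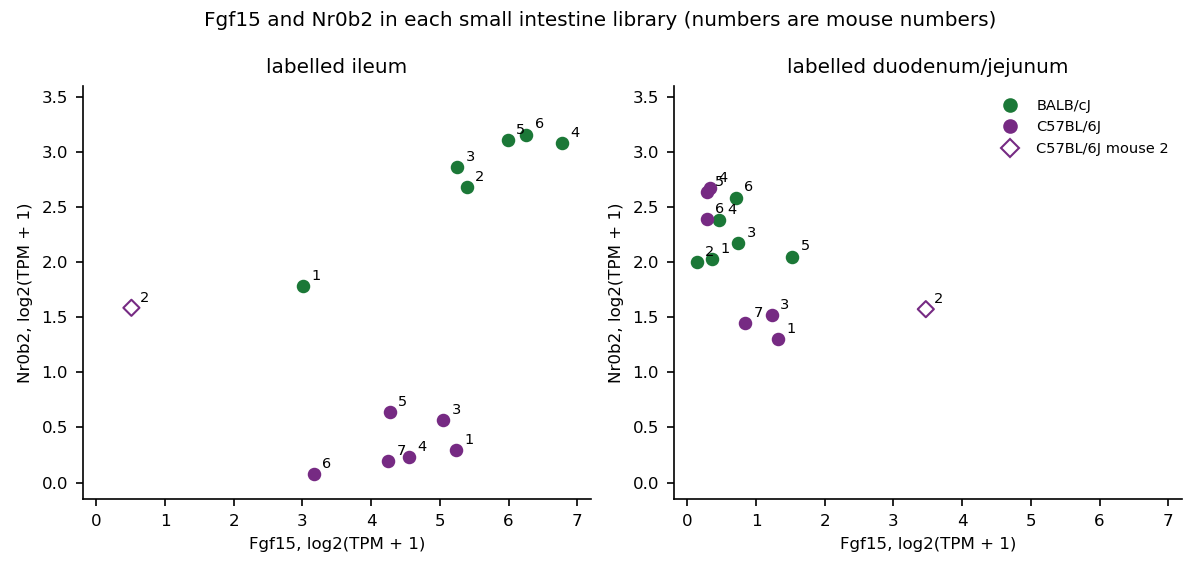
Nr0b2 against Fgf15, both as log2(TPM + 1), in the libraries labelled ileum and those labelled duodenum/jejunum of each mouse, by strain, with C57BL/6J mouse 2 marked. In the ileum the BALB/cJ mice lie at 2.44 TPM of Nr0b2 or higher and the C57BL/6J mice other than mouse 2 at 0.558 TPM or lower, over Fgf15 ranges that overlap.

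Over the 36 libraries without mouse 2, the genes whose log2(TPM + 1) was most like that of Fabp6 were Tmem117 (Pearson r = 0.98), Suox (0.97), Dfna5 (0.97), Slc25a48 (0.95) and Slc1a1 (0.95), among 10780 genes with a mean of at least 5 TPM in the ileum. Suox, the sulfite oxidase of mitochondria, averaged 150.3 TPM in the ileum, 14.8 in the colon and 8.69 in the duodenum/jejunum. Slc1a1, a transporter of glutamate and aspartate, averaged 74.3, 23.4 and 24.1 TPM. Among the bile acid genes Fgf15 (0.95) and Slc51b (0.84) were closest to Fabp6 and Nr0b2 (0.14) was farthest. Within the 12 ileum libraries, with strain means subtracted, Gsdmc2 (0.93), Smpd3 (0.91), Lrp1 (0.89), Eogt (0.89) and Gsdmc4 (0.87) were most like Fgf15. These are descriptions over libraries that share tissue and mouse, with no test.

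Other genes of bile acid biology, from lists made by function, are given without mouse 2, with the counts for all mice beside them where they differ. Of 11 tested bile acid and sterol transporters, 0 passed between strains in the ileum by limma (0 at an unadjusted p under 0.05), where 23.5% of all genes passed. The median difference was 0.07 for the list and 0.16 for all genes. Between ileum and duodenum/jejunum 3 were higher and 2 lower in BALB/cJ and 1 higher and 2 lower in C57BL/6J (1 and 1 with all mice), against 46.0% and 20.6% of all genes called. Abcg2, an apical efflux pump, was higher in the ileum, at 313 against 157 TPM in BALB/cJ and 336 against 196 TPM in C57BL/6J (limma adjusted p = 4.26e-08 and 6.67e-06). Abcc2, the apical pump for conjugated organic anions, was lower, at 54.5 against 160 TPM and 74.8 against 250 TPM (limma adjusted p = 2.05e-06 and 3.67e-07).

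Of 11 other sensors and partners tested, 0 passed between strains in the ileum by limma (1 at an unadjusted p under 0.05), against 23.5% of all genes. Nr1i3 (CAR), a xenobiotic receptor, was lower in the ileum than in the duodenum/jejunum, at 8.28 against 36.6 TPM in BALB/cJ and 7.21 against 34.7 TPM in C57BL/6J (limma adjusted p = 2.98e-12 and 1.56e-12). Nr5a2, the LRH-1 that SHP represses, was higher in the BALB/cJ ileum (37.7 against 20.9 TPM, limma adjusted p = 1.57e-04) and did not pass in C57BL/6J (39.8 against 29.3 TPM, 0.0522). Vdr, the vitamin D receptor, had the highest level of the list, 255 and 252 TPM in the ileum of the strains.

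Among the transcription factors of the enterocyte programme, 5 of 14 were higher and 6 lower in the BALB/cJ ileum than in its duodenum/jejunum, and 4 higher and 6 lower in C57BL/6J, against the same 46.0% and 20.6%. Gata4, known for keeping ileal bile acid genes low in the upper small intestine, stood at 34.5 TPM in the ileum against 106 TPM upstream of it in BALB/cJ and at 33.9 against 97.8 TPM in C57BL/6J (limma adjusted p = 1.66e-08 and 1.25e-07). Onecut2 was at 0.581 against 21.8 TPM and 0.319 against 14.96 TPM (limma adjusted p = 4.03e-20 and 1.94e-19). Cdx1, a factor of the distal gut, was higher in the ileum, at 70.0 against 38.2 and 82.8 against 49.6 TPM (limma adjusted p = 2.20e-08 and 5.18e-07). In the ileum it was the 1 factor of 13 tested that was called between strains, against 23.5% of all genes. Its difference was -0.24 on the log2(TPM + 1) scale, BALB/cJ minus C57BL/6J (limma adjusted p = 0.0147). With all mice that call was lost (-0.07, limma adjusted p = 0.811). Hnf4a had the highest level of the list and was higher in the ileum, at 329 against 227 and 308 against 237 TPM (limma adjusted p = 1.27e-04 and 0.00811).

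Of 10 tested genes of bile acid synthesis, conjugation and detoxification, 3 were higher and 1 lower in the BALB/cJ than in the C57BL/6J ileum, against 23.5% of all genes called. With all mice 2 were higher and 1 lower, Cyp27a1 being lost (limma adjusted p = 0.0606). Cyp27a1, the mitochondrial sterol 27-hydroxylase, stood at 53.9 against 26.9 TPM (limma adjusted p = 0.00498), Amacr, an acyl-CoA racemase of peroxisomes and mitochondria, at 8.23 against 6.00 TPM (0.00706) and Hsd3b7, a dehydrogenase of early bile acid synthesis, at 29.4 against 23.5 TPM (0.00725). Cyp3a13, a cytochrome P450, was lower, at 75.7 against 148 TPM (limma adjusted p = 0.00595), and was also lower in the BALB/cJ duodenum/jejunum (222 against 393 TPM, 0.00102) and colon (26.1 against 74.0 TPM, 1.64e-05). Malrd1, a membrane protein of enterocytes known to raise Fgf15 output, had 108 and 88.5 TPM in the ileum of the strains and did not pass (limma adjusted p = 0.0690). Cyp3a11, another cytochrome P450, did not pass either, at 80.1 against 45.4 TPM (limma adjusted p = 0.523). Klb, the co-receptor through which Fgf15 acts on liver cells, was at 0.705 and 0.650 TPM.

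Within the fatty acid binding protein family Fabp1 had a gradient opposite to that of Fabp6, at 621 TPM in the ileum against 7686 in the duodenum/jejunum of BALB/cJ and 260 against 5888 TPM in C57BL/6J (limma adjusted p = 5.13e-10 and 7.95e-12). Fabp2, the intestinal form, did not differ detectably, at 8035 against 8284 TPM and 6642 against 6797 TPM (limma adjusted p = 0.699 and 0.843). Of the Slc10 family, Slc10a7 was also higher in the ileum of both strains, at 11.2 against 8.04 TPM and 10.4 against 8.43 TPM (limma adjusted p = 0.00121 and 0.0453). Between strains in the ileum 1 of 5 tested genes of each family was called, against 23.5% of all genes tested. These were Fabp4, a fatty acid binding protein of adipocytes (64.3 and 24.8 TPM, limma adjusted p = 0.0447, higher in BALB/cJ), and Slc10a3 (10.7 and 8.60 TPM, 0.0253, likewise).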

How the data were processed

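Per the labels' protocols, RNA came from a PureLink kit, ribosomal RNA was depleted with RiboZero and libraries were TruSeq total RNA. The authors quantified with kallisto 0.44.0 on the build GRCm38, per the submitters' processing notes. Which annotation gave the gene names is not stated in these sources. Values were deposited as log2(TPM + 1) in a table for each tissue, with 34600 entries, of which 26 with date-like names were left out. Values were turned back to TPM for levels and tested as log2(TPM + 1), a pseudocount of 1, which understates changes of low genes.

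A gene was tested when it reached 1 TPM in 6 or more libraries, by limma 3.58.1 (R 4.3.3), letting the variance follow the mean. Strains were compared within a tissue (13 libraries), and tissues and interactions in 1 fit of 39 libraries with 6 group means. All tests were 2-sided, with Benjamini-Hochberg adjustment over all genes tested and calls at an adjusted p under 0.05. The tissues of a mouse come from the same animal, per the labels. The correlation between libraries of a mouse was 0.0963 (0.146 without C57BL/6J mouse 2), and the mouse was used as a block as an alternative. Pairs of genes were tested with 100000 permutations within strains, in Python 3.11.15 with numpy 2.4.6. The fit was tested on simulated data.

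The 7 genes and the other lists were chosen with earlier results of these data known. Named genes were all 7, up to 4 called genes of each other list by adjusted p with the gene of highest level, and the 5 genes most like Fabp6 and Fgf15.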

Additional observations from a re-analysis of the deposited data

Results flagged for a closer look

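Of 42 sets of values, 7 genes in 6 groups, 15 had a highest or lowest mouse apart from the others by Dixon's criterion, where chance gives about 1 in 20. In 11 of the 15 the mouse was C57BL/6J mouse 2. Its library labelled ileum was low in Slc10a2 (4.10 TPM), Fabp6 (22.1 TPM), Slc51a (141 TPM) and Nr1h4 (20.5 TPM) and high in Nr0b2 (2.00 TPM, the next mouse 0.558 TPM). Its library labelled duodenum/jejunum was high in Slc10a2 (86.7 TPM), Fabp6 (6111 TPM), Slc51a (250.2 TPM), Slc51b (334 TPM), Nr1h4 (56.8 TPM) and Fgf15 (10.1 TPM).

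The other mice apart were of BALB/cJ. Mouse 5 was high in ileal Fabp6 (11144 TPM, the next 6187 TPM) and low in colonic Slc51a (13.3 TPM, the next 31.8 TPM). Mouse 1 was low in ileal Nr0b2 (2.44 TPM, the next 5.43 TPM), and mouse 2 of that strain was low in Nr1h4 in the duodenum/jejunum (23.5 TPM).

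The strain difference of Nr0b2 itself differed between tissues by the limma interaction, by 2.00 between ileum and duodenum/jejunum and by 2.04 between ileum and colon on the log2(TPM + 1) scale. The latter largely restates the ileal difference, since the colon levels lie below the pseudocount of 1.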

How the results depend on the processing

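Over 2031 recomputed results for single genes, 1975 kept their call and direction, 23 lost a call, 32 gained one and 1 reversed. The reversed one was the ileal strain difference of Nr1h4, at -0.32 with relative log expression (RLE) scaling without C57BL/6J mouse 2, a combination chosen after seeing the data. The number of the 7 genes called between strains went from 0 to 1 in the colon with RLE scaling without mouse 2, and ranged from 0 to 1 as each mouse was left out. In the ileum it went from 1 to 0 with a filter of 5 TPM, which drops Nr0b2, and to 2 without mouse 2 with RLE or epithelial scaling. For the strain difference in the duodenum/jejunum against that in the colon it went from 0 to 1 without mouse 2, alone (range 0 to 1 over mice left out), with RLE scaling or with the replicate block. Pairs of genes called in the ileum went from 7 to 12 with all 13 mice, to 11 with RLE scaling and to 1 with epithelial scaling. With the mouse as a replicate block, 7 genes were called between ileum and duodenum/jejunum in each strain, and with all mice the block changed none of the 63 calls. Differences within each mouse, an alternative chosen after seeing the data, ended the call of Nr0b2 in BALB/cJ (ileum against duodenum/jejunum) and gained Nr0b2 for ileum against colon (adjusted p = 0.0464) and Fgf15 for duodenum/jejunum against colon (0.0200) in C57BL/6J, and Nr1h4 for the latter in BALB/cJ (-0.48, 0.0381), all by limma.

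Counts over all genes depended more on the scaling. The 3169 genes called between strains in the ileum became 1824 with RLE and 1291 with epithelial scaling, 1834 with the latter without mouse 2, and 1948 without BALB/cJ mouse 5. The 1940 called between ileum and duodenum/jejunum in C57BL/6J became 3510 without mouse 2, 6564 with epithelial scaling (7677 without mouse 2), and 1132 to 1206 without C57BL/6J mouse 4, 5 or 6. The share of calls that were higher moved from 84.5% to 51.6% with RLE scaling for strains in the ileum, and from 82.3% to 49.0% with RLE scaling for ileum against duodenum/jejunum in BALB/cJ. It moved from 48.9% to 3.52% with epithelial scaling for that comparison in C57BL/6J, and with RLE scaling from 34.3% to 48.6% and from 24.6% to 48.4% for ileum against colon in BALB/cJ and C57BL/6J. The interaction of strain with ileum against duodenum/jejunum called 672 genes, 120 with RLE, 58 with epithelial scaling and 1302 with the replicate block. Depth is unknown in TPM, so a level near 0, as of Nr0b2 and Fgf15 in the colon, cannot be given a counting limit. With 6 or 7 mice a group, a gene that was not called may still differ by any amount inside its printed interval.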

Other observations

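The 7 genes annotated within 100 kb of Nr0b2 and tested in the ileum were looked up after its values were seen. Of these, 2 were called between the strains in the ileum, both by limma, where 20.4% of all genes tested were called (23.5% without C57BL/6J mouse 2). Nudc, a gene of nuclear migration, was higher in BALB/cJ (0.45 on the log2(TPM + 1) scale, adjusted p = 0.00798, and 0.37, adjusted p = 0.00169, without C57BL/6J mouse 2). Gpn2 was lower (-0.37, adjusted p = 0.0143, and -0.35, adjusted p = 0.0167). Trnp1, Kdf1, Gpatch3, Sfn and Zdhhc18 were not called in the ileum. In the colon Trnp1, Kdf1, Gpn2 and Sfn were called lower in BALB/cJ and Nudc higher, against 25.3% of all genes. Gpatch3 and Zdhhc18 were not called there, and Nudc lost its call without C57BL/6J mouse 2 (limma adjusted p = 0.0805). In the duodenum/jejunum Trnp1 and Sfn were lower in BALB/cJ, against 9.50% of all genes, and the others were not called. Without mouse 2 Gpatch3 was also lower there (8.93% of all genes).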
